A study of Mus musculus with 22 samples.

Results

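The 31 astrocyte genes described here are genes known to be enriched in astrocytes, taken by symbol from the 37786 genes of the RNA sequencing table of the mouse anterior cingulate cortex (ACC). All 31 symbols were found, and all 31 passed the minimum of 10 counts in at least 10 mice that left 17524 genes for testing. The rule that chose them used no expression value, but earlier results of these data were known when they were chosen. They were grouped by role into 2 intermediate filament genes, 2 connexins, 7 genes of membrane transport and perivascular endfeet, 2 transcription regulators, 4 genes of receptors and signalling, 7 metabolic enzymes and carriers, 4 secreted proteins and 3 genes of proteoglycans and matrix.

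The tissue came from 22 adult male C57BL/6J mice without nerve injury, each with AAV5-CaMKIIa-ChR2(H134R)-EYFP injected into the basolateral amygdala (BLA) on both sides and an optic fiber in the ACC on 1 side. The 10 stimulated mice received 9 optogenetic sessions that activated BLA terminals in the ACC, and the 12 controls went through the same handling with the light off. The sessions were spread over weeks, and the ACC was dissected days after the last session. The CaMKIIa promoter drives the opsin in excitatory neurons and not in astrocytes, and the ACC of both hemispheres was dissected although only 1 side carried the fiber. Every sample was bulk tissue, in which fewer astrocytes and less of an RNA in each astrocyte cannot be told apart.

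Astrocytes clear glutamate and potassium from the space around synapses, store glycogen, are joined to each other by gap junctions, and wrap blood vessels with endfeet that carry water channels. In cortical grey matter Aldh1l1, S100b and Sox9 label most astrocytes, while Gfap, an intermediate filament gene, is low in many of them and is best known for its increase in reactive astrocytes. The levels, the comparison of stimulated with control mice, and the way the genes varied from mouse to mouse are described in that order.

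Values are given as CPM, counts scaled to a fixed library size. Total counts ranged from 23090483 to 43668462 per mouse, and the lowest count of any of the 31 genes in any mouse was 155. The library numbers of the labels fell into 2 series, each with controls followed by stimulated mice. Numbers 1 to 11 held 6 controls and 4 stimulated mice, and numbers 12 to 23 held 6 of each. The labels do not say that the series were processed separately. The study generated its mice for sequencing in 2 batches, and the labels do not state whether these are the series. Of all genes tested, 11927 (68.1%) differed between the series at a Benjamini-Hochberg adjusted p under 0.05 by the edgeR quasi-likelihood test, and the series was a term in the fit that compared the groups. Control 9 and control 11 stood apart by their oligodendrocyte markers, whose 14 genes summed to 20339 and 14734 CPM of all counts against 2290 to 6512 in the other mice. Control 3 had 135 CPM from the 8 ependymal and choroid plexus markers, against 4.43 to 46.2 in the others.

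The promoters shown here are those of the reactive marker Gfap, which had the widest spread on the log2 scale within group and series, and of Slc4a4 and Gpc5, the only members whose groups differed at an unadjusted p under 0.05. The windows hold 250 bases before and 50 bases after a RefSeq start on GRCm38.p6, and capitals mark a nuclear factor I half-site TTGGC, a STAT motif TTCNNNGAA, a SOX motif AACAAT or a TATAAA box on either strand. No match overlapped another in these windows.
Gfap, chr11:102897151-102897450, minus strand: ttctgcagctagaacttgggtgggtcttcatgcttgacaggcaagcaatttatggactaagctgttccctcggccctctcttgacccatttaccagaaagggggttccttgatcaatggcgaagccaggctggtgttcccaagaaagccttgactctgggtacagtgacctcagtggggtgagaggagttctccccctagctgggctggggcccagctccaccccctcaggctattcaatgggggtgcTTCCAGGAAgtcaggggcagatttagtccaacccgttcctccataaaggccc
Slc4a4, upstream start, chr5:88887010-88887309, plus strand: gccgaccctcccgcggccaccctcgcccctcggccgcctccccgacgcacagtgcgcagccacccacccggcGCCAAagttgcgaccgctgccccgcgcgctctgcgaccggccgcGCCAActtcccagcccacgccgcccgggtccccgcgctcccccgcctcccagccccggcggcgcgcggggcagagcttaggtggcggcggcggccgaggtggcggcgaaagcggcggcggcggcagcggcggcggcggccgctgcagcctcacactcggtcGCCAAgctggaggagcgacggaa
Slc4a4, downstream start, chr5:89027716-89028015, plus strand: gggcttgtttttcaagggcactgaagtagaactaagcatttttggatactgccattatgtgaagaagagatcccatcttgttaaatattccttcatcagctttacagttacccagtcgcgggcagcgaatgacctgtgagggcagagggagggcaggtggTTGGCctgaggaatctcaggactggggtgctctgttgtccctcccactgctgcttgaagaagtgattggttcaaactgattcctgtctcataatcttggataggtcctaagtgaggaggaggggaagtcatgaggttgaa
Gpc5, chr14:115091965-115092264, plus strand: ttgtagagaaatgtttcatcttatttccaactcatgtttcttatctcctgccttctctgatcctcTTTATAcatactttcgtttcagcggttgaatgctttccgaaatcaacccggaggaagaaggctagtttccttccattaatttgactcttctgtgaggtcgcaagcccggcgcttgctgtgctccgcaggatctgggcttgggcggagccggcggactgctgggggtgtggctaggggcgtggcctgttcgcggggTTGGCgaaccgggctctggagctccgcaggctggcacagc
The Gfap window lay within the GENCODE span of Gfap with 50 of its 300 bases in annotated exons, and its STAT match spanned the start. The upstream Slc4a4 window lay wholly within annotated exons of Slc4a4, had a GC content of 80.0% and held 3 half-sites. The downstream one, 48.3% GC, lay inside the gene with 50 exonic bases and held 1 half-site. The Gpc5 window reached 50 bases into the gene and held a half-site and a TATAAA match.

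Windows were found for 26 of the 31 genes, with 29 starts in all. Aqp4, Atp1b2, Clu, Fjx1 and Sox9 had none in the table. The STAT motif was present in 6 of the 29 windows (20.7%) and in 8.30% of the 32851 windows of all genes. The nuclear factor I half-site was present in 15 windows (51.7%) and in 46.7% of all windows, TATAAA in 6 windows (20.7%) and in 13.6%, and the SOX motif in 0 windows and in 10.7%. These are counts of letters and no evidence of binding.

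The 31 genes took between 0.583% and 1.66% of all counts of a mouse. Levels are given as CPM per kilobase of summed exon length, the scale on which genes are compared. The length holds every annotated exon of a gene, whichever transcripts were present, so the order depends on it too. Slc7a11 had 48.6 CPM in controls and Cbs 46.8. With 13922 bases of exon against 7485, Slc7a11 was the lower per kilobase. They are means over both library series, and part of the order turned with the series. Cst3, which encodes the secreted protease inhibitor cystatin C, was highest at 1675 ± 671 CPM per kilobase (SD, n = 22). Aldoc, a glycolytic aldolase, followed at 650.1 ± 211, and Clu, which encodes the secreted chaperone clusterin, at 540.4 ± 132. Cst3 exceeded Aldoc in 22 of 22 mice, and Aldoc exceeded Clu in 21 of 22, by 0.24 ± 0.14 on the log2 scale.

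Clu exceeded the next gene in 22 of 22 mice. This was Mfge8, which encodes a secreted protein that binds phosphatidylserine, at 134 CPM per kilobase. Mlc1, an endfoot membrane protein, stood at 124 CPM per kilobase, and Mfge8 exceeded it in 10 of 10 mice of libraries 1 to 11 and in 5 of 12 of libraries 12 to 23. Ntsr2, a neurotensin receptor, had 101. The remaining levels formed a gradual slope. Gfap at 57.8 ± 24.6 and S100b, a calcium-binding protein, at 57.7 ± 20.1 had nearly the same mean, but Gfap was the higher in 0 of 10 mice of libraries 1 to 11 and in 11 of 12 of libraries 12 to 23. Of the 30 neighbouring pairs, 4 turned completely between the series. Gja1 exceeded F3, Aldh1l1 exceeded Id4, Aqp4 exceeded Id4 and Atp1b2 exceeded Slc25a18 in 0 of 10 mice of the earlier and in 12 of 12 of the later libraries. Another 4 pairs, Cst3 over Aldoc, Clu over Mfge8, Gpc5 over Sox9 and Vim over Cbs, kept their order in every mouse.

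Aldh1l1, an enzyme of folate metabolism used as a general astrocyte marker, had 26.1 ± 7.10 CPM per kilobase, and Aqp4, the water channel of endfeet, had 23.1 ± 7.87. Sox9, a transcription factor, had 13.4 ± 2.80 and was below its neighbour Gpc5 in 22 of 22 mice. Vim, the other intermediate filament gene, had 11.0 ± 2.56 and exceeded Cbs, an enzyme of cysteine synthesis, in 22 of 22 mice. The lowest levels were those of Agt, which encodes angiotensinogen, at 5.21 ± 1.62, of Slc7a11, which encodes the cystine and glutamate exchanger, at 3.43 ± 1.24, and of Phkg1, a catalytic subunit of phosphorylase kinase, at 2.56 ± 0.588. Phkg1 shares 630 exonic bases with Sumf2 on the opposite strand and Fgfr3 shares 998 with G630022F23Rik, and the library kit does not mark strand.

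**Figure D1:**
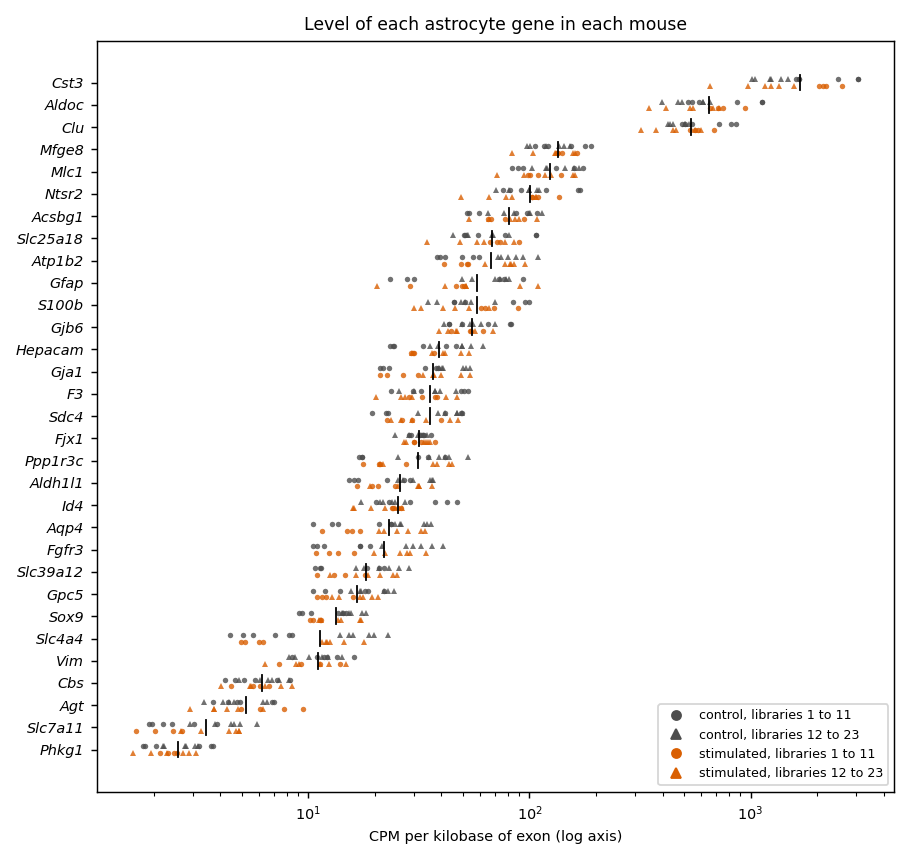
Level of each of the 31 astrocyte genes in each mouse, in CPM per kilobase of exon on a log axis, ordered by the mean over 22 mice (black line). Circles are libraries 1 to 11, triangles libraries 12 to 23, grey controls and orange stimulated mice. Cst3, Aldoc and Clu lie apart above the other 28 genes, and for Slc4a4 the circles lie below the triangles without overlap.

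The comparison of stimulated with control mice asked whether repeated activation of the BLA-ACC pathway altered these genes. At an adjusted p under 0.05, 0 of 31 members and 0 of 17524 genes (0.0%) differed by the edgeR quasi-likelihood test (Benjamini-Hochberg), where the smallest adjusted p was 0.346 for a member and 0.241 for any gene. At an unadjusted p under 0.05 there were 2 members, Slc4a4 and Gpc5, both with the lower mean in stimulated mice, against 11.5% of all genes, of which 5.45% were lower and 6.05% higher. The log2 fold change was negative for 28 of 31 members, with a median of -0.14, against 47.4% of all genes and a median of 0.01.

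That lean was not retained when the mitochondrial share of counts entered the fit. The share of mitochondrial counts varied from 0.982% to 4.81% among the mice and moved with these genes, as described further on. In a fit with the series and that share, chosen after seeing the data, 12 of 31 members had a negative log2 fold change and the median was 0.03, against 45.5% of all genes and a median of 0.01. In that fit 2 members had an unadjusted p under 0.05, Slc4a4 with a log2 fold change of -0.17 and Aldoc with 0.19, against 10.6% of all genes, and 0 were at an adjusted p under 0.05 in the same edgeR test. Within controls the mitochondrial share had a median of 1.76%, and within stimulated mice of 1.49%. In libraries 1 to 11 the medians were 2.52% and 2.21%, and in libraries 12 to 23 they were 1.51% and 1.05%. The values of the groups overlapped for all 31 members, over all mice and within each series. Over all genes they did not overlap for 0.00571% in all mice, 1.29% within libraries 1 to 11 and 0.548% within libraries 12 to 23.

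**Figure D2:**
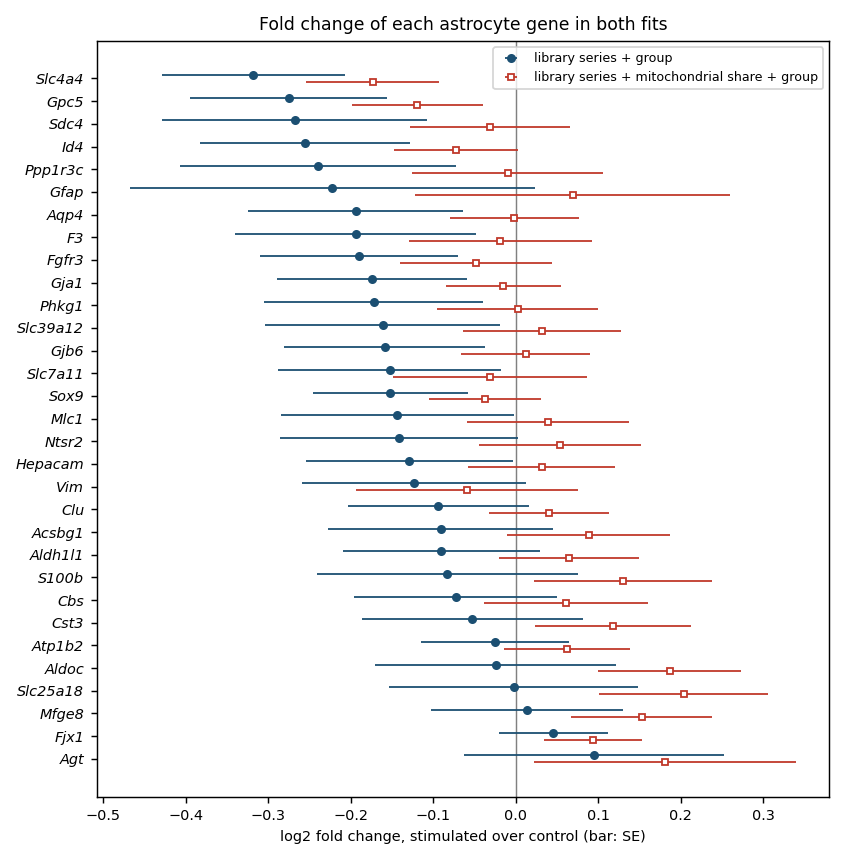
Log2 fold change of stimulated over control mice for each astrocyte gene, with its standard error, from the fit with the library series (filled circles) and from the fit that also held the mitochondrial share of counts (open squares). With the series 28 of 31 points lie below 0, and with the mitochondrial share 12 of 31.

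Of the intermediate filament genes, Gfap ranged from 99.1 to 396 CPM around a median of 301 in controls, and from 86.4 to 463 around a median of 211 in stimulated mice. The groups overlapped over nearly their whole range, and stimulated mice held the lowest and the highest value. Its log2 fold change was -0.22 with a standard error of 0.25 (adjusted p = 0.747, edgeR quasi-likelihood test, Benjamini-Hochberg). Vim ranged from 38.8 to 76.0 CPM in controls and from 30.2 to 70.3 in stimulated mice, with a log2 fold change of -0.12.

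Gja1, which encodes a connexin of astrocyte gap junctions, ranged from 216 to 554 CPM around a median of 399 in controls, and from 216 to 551 around a median of 356 in stimulated mice. The lowest and the highest values of the groups were nearly the same, and the log2 fold change was -0.17 with a standard error of 0.12 (adjusted p = 0.557, edgeR quasi-likelihood test, Benjamini-Hochberg). Gjb6, which encodes the other astrocyte connexin, had a log2 fold change of -0.16.

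The log2 fold changes of the 7 genes of membrane transport and endfeet were all negative in the fit with the series, between -0.32 and -0.03. With the mitochondrial share added those of Atp1b2, Mlc1, Hepacam and Slc39a12 were positive. Slc4a4, which encodes a sodium bicarbonate cotransporter, had 47.8 to 91.3 CPM in controls and 53.5 to 67.5 in stimulated mice of libraries 1 to 11. In libraries 12 to 23 it had 151 to 248 CPM in controls (median 187) and 125 to 193 in stimulated mice (median 133). In the later libraries 4 of 6 stimulated mice lay below every control, and in the earlier ones the stimulated values lay inside the range of controls. The log2 fold change was -0.32 with a standard error of 0.11, an unadjusted p of 0.00829 and an adjusted p of 0.346 (edgeR quasi-likelihood test, Benjamini-Hochberg). Within the series it was -0.20 in libraries 1 to 11 and -0.44 in libraries 12 to 23, and with the mitochondrial share in the fit it was -0.17.

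Aqp4 ranged from 65.4 to 224 CPM around a median of 151 in controls, and from 71.9 to 209 around a median of 133 in stimulated mice, so that stimulated mice lay within the range of controls. Its log2 fold change was -0.19 with a standard error of 0.13 (adjusted p = 0.56, edgeR quasi-likelihood test, Benjamini-Hochberg). Mlc1 and its partner Hepacam, an adhesion protein that holds it at the membrane, had log2 fold changes of -0.14 and -0.13. The zinc transporter gene Slc39a12 had -0.16, Slc7a11 -0.15, and Atp1b2, which encodes a beta subunit of the sodium-potassium pump, -0.03.

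For the transcription regulators, Sox9 ranged from 37.4 to 75.7 CPM around a median of 59.2 in controls, and from 42.3 to 71.7 around a median of 47.2 in stimulated mice, again inside the range of controls, with a log2 fold change of -0.15 and a standard error of 0.09 (adjusted p = 0.532, edgeR quasi-likelihood test, Benjamini-Hochberg). Id4, an inhibitor of helix-loop-helix factors, had a log2 fold change of -0.26 at an unadjusted p of 0.055.

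Among receptors and signalling genes, S100b ranged from 51.5 to 148 CPM around a median of 76.0 in controls, and from 44.7 to 132 around a median of 84.2 in stimulated mice. Over all mice the stimulated ones had the higher median and the lower mean. Within each series their median was the lower, 97.8 against 101 CPM in libraries 1 to 11 and 64.6 against 74.6 in libraries 12 to 23. The log2 fold change of -0.08 was smaller in size than its standard error of 0.16 (adjusted p = 0.867, edgeR quasi-likelihood test, Benjamini-Hochberg). Fgfr3, a fibroblast growth factor receptor, Ntsr2 and F3, which encodes tissue factor, had log2 fold changes of -0.19, -0.14 and -0.19.

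In the fit with the series, the 7 metabolic genes had log2 fold changes between -0.24 and -0.003, all negative. With the mitochondrial share added only that of Ppp1r3c was negative, at -0.01. Aldh1l1 ranged from 69.1 to 166 CPM around a median of 122 in controls, and from 74.9 to 164 around a median of 113 in stimulated mice, which overlapped almost completely (log2 fold change -0.09, standard error 0.12). Ppp1r3c, which targets a phosphatase to glycogen, had the lowest of the 7 values at -0.24, and Phkg1, which acts on the enzyme that breaks glycogen down, had -0.17. Aldoc and Slc25a18, a mitochondrial glutamate carrier, had -0.02 and -0.003, while Cbs had -0.07 and Acsbg1, an acyl-CoA synthetase, -0.09.

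The secreted proteins were the role with as many positive as negative values. Agt ranged from 6.37 to 13.2 CPM around a median of 8.84 in controls, and from 5.48 to 17.9 around a median of 9.22 in stimulated mice, so that the stimulated range enclosed that of controls. Its log2 fold change was 0.10 with a standard error of 0.16 (adjusted p = 0.846, edgeR quasi-likelihood test, Benjamini-Hochberg), the highest among the members. It was 0.44 within libraries 1 to 11 and -0.22 within libraries 12 to 23, and without stimulated 1, the mouse with 17.9 CPM, it was -0.01. Mfge8 had a log2 fold change of 0.01, Cst3 of -0.05 and Clu of -0.09.

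Among proteoglycans and matrix, Gpc5, a glypican anchored to the membrane, ranged from 46.8 to 109 CPM around a median of 78.6 in controls, and from 48.9 to 91.9 around a median of 66.0 in stimulated mice. Of the 10 stimulated mice, 8 lay below the median of controls, but all lay within their range. The log2 fold change was -0.28 with a standard error of 0.12, an unadjusted p of 0.0295 and an adjusted p of 0.391 (edgeR quasi-likelihood test, Benjamini-Hochberg), and it was -0.12 with the mitochondrial share in the fit. Sdc4, which encodes the proteoglycan syndecan, had -0.27. Fjx1, related to a fly protein of planar polarity, had 77.3 to 112 CPM in controls (median 100.4) and 84.8 to 117 in stimulated mice (median 103), with a log2 fold change of 0.05 and the smallest spread of all members, a standard deviation of 0.157 log2 units within group and series.

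**Figure D3:**
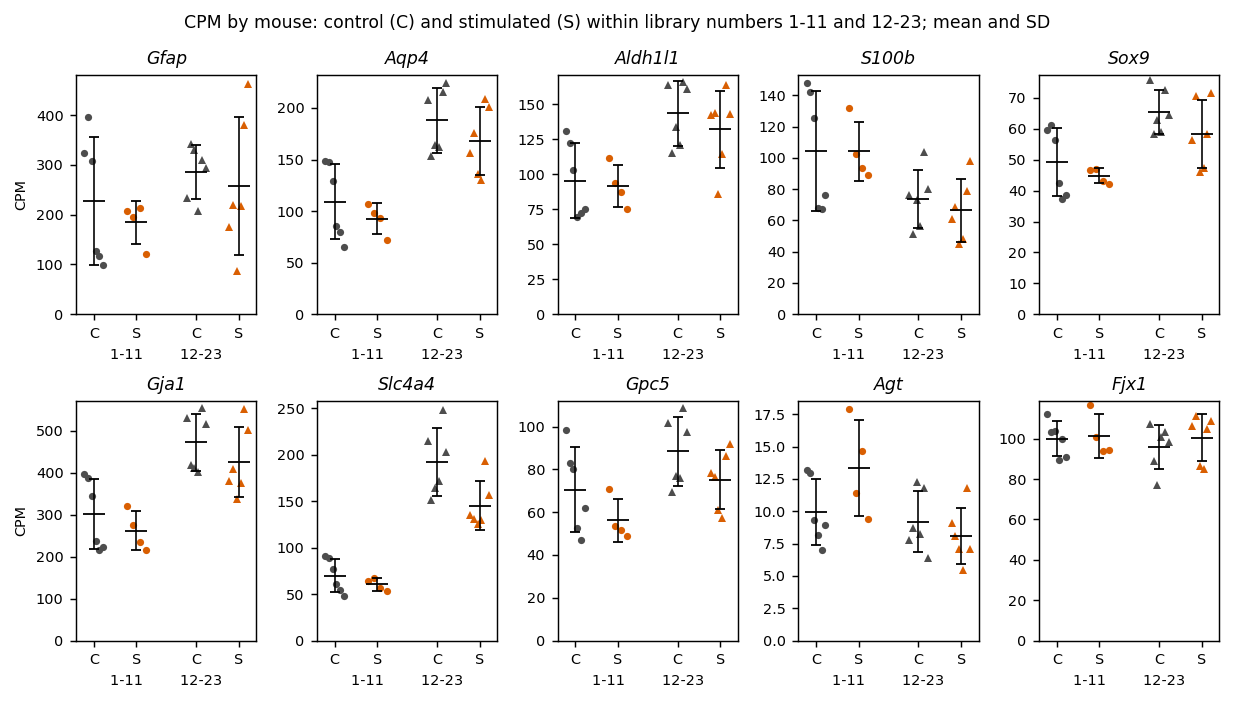
CPM of 10 astrocyte genes in each mouse, with the mean and SD of controls (C, grey) and stimulated mice (S, orange) in library numbers 1 to 11 (circles) and 12 to 23 (triangles), each panel starting at 0. The groups overlap in every panel and in both series. For all genes shown but Fjx1 the fitted log2 difference between the series is larger in size than that between the groups.

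Whether the effect of stimulation differed between the series was tested as an interaction in the same edgeR model. At an unadjusted p under 0.05 there were 0 of 31 members, against 8.01% of all genes, and the smallest unadjusted p was that of Agt, 0.0503, with a difference of -0.61 on the log2 scale between the later and the earlier series (adjusted p = 0.624, Benjamini-Hochberg). Negative log2 fold changes were found for 23 of 31 members within libraries 1 to 11, against 48.8% of all genes, and for 30 of 31 within libraries 12 to 23, against 50%.

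Between the series themselves most of the astrocyte genes differed by more than between the groups, by the size of the fitted log2 difference. Vim, Gjb6, Mlc1, F3, Phkg1, Sdc4 and Fjx1 differed by less. Of the 31 genes, 12 were higher and 7 lower in libraries 12 to 23 at a Benjamini-Hochberg adjusted p under 0.05 by the edgeR quasi-likelihood test, against 33.7% and 34.3% of all genes. The 19 members called are a smaller share of 31 than the background of 68.1%. All 7 genes of membrane transport and endfeet had the higher mean in libraries 12 to 23, 6 of them past the test, and all 4 secreted proteins the lower mean, 3 of them past the test.

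Slc4a4 differed most, by 1.37 with a standard error of 0.11 on the log2 scale (adjusted p = 7.13e-11, edgeR quasi-likelihood test, Benjamini-Hochberg), followed by Fgfr3 at 1.07, Slc7a11 at 0.84, Aqp4 at 0.82, Atp1b2 at 0.80 and Gja1 at 0.67. Cst3 lay at the other end with -0.91, S100b had -0.57 and Aldoc -0.54. For 4 of 31 members, Slc4a4, Fgfr3, Atp1b2 and Cst3, the values of the series did not overlap, against 26.1% of all genes. Cst3 had 2032 to 3884 CPM in controls of libraries 1 to 11 and 1286 to 1875 in those of libraries 12 to 23. Gfap, at 0.39 with a standard error of 0.25, and Vim, at -0.09, did not pass the test.

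Exon length moved with this difference. Of the 15 members with more than 3604 bases of exon, 12 were higher in libraries 12 to 23, and of the 16 others 6 were. Spearman's rho between exon length and the log2 difference was 0.616 over the 31 members and 0.617 over 17516 genes with a length. Among all genes with a length, 69.8% of those above 3604 bases and 21.8% of the others were higher in libraries 12 to 23, with median log2 differences of 0.32 and -0.43, against 0.40 and -0.12 for the longer and shorter members. These are correlations across genes of the same libraries and genes are not independent replicates. The part of length in the difference was not tested. The mitochondrial share was 1.63% to 4.81% in libraries 1 to 11 and 0.982% to 1.90% in libraries 12 to 23.

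**Figure D4:**
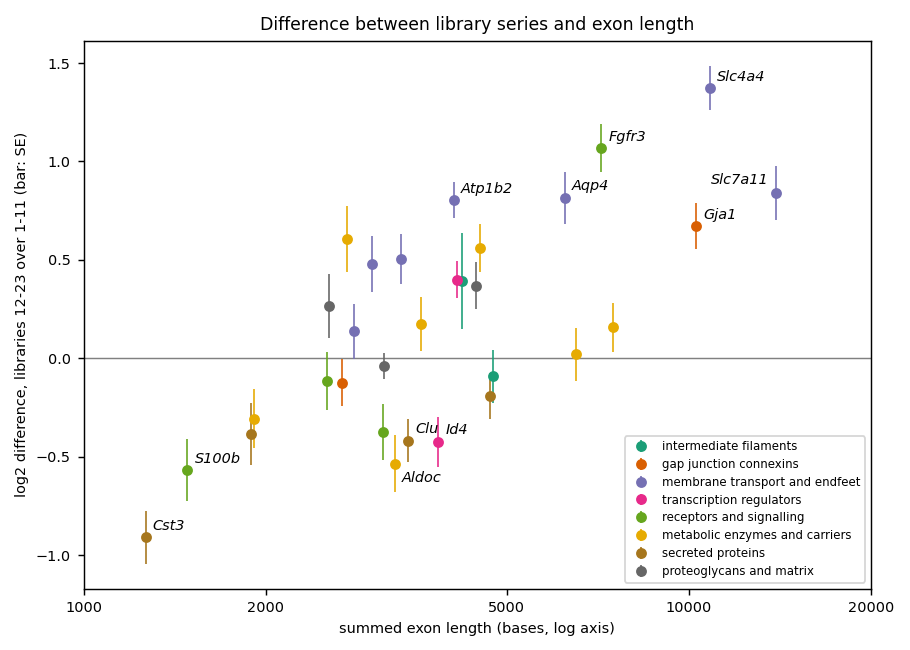
Log2 difference between library numbers 12 to 23 and 1 to 11 for each astrocyte gene, with its standard error, against summed exon length in bases on a log axis, coloured by role. Short genes such as Cst3 and S100b lie below 0 and long ones such as Slc4a4 and Slc7a11 above, with a Spearman's rho of 0.616.

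Within group and series the astrocyte genes varied together from mouse to mouse. Over the 22 mice, with log2 CPM centred within group and series, the median correlation among the 465 pairs of members was 0.868, and 464 pairs were above 0. The closest pair was Mlc1 and Slc25a18 (r = 0.989) and the loosest Vim and Fjx1 (r = -0.066). Aldoc followed the mean of the other members most closely (r = 0.987), followed by Clu at 0.976. Vim (r = 0.325), Slc7a11 (0.403), Agt (0.619) and Fjx1 (0.681) followed it least, and Gfap had 0.821. The points share libraries and their composition, and these values are descriptions without a test.

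The mean of the members over the mice, as log2 CPM centred on each gene's mean, ranged from -0.47 to 0.43 in controls (0.05 ± 0.34, n = 12) and from -0.45 to 0.37 in stimulated mice (-0.06 ± 0.27, n = 10). Control 1, control 2 and control 11 had the highest control values at 0.43, 0.39 and 0.43, and control 4, control 5 and control 6 the lowest at -0.42, -0.47 and -0.42. Stimulated 7 had -0.45, and stimulated 9 and stimulated 10 had 0.37 and 0.32. High and low mice were present in both groups, and the spread within a group was larger than the difference between the means.

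Gfap had the widest spread within group and series, a standard deviation of 0.684 log2 units. In controls of libraries 1 to 11 it had 324, 396 and 307 CPM in control 1, control 2 and control 3 and 127, 118 and 99.1 CPM in control 4, control 5 and control 6. In stimulated mice of libraries 12 to 23 it ran from 86.4 CPM in stimulated 7 to 463 in stimulated 10. Not every member followed it. Slc7a11 had its highest stimulated value, 67.7 CPM, in stimulated 7 and its lowest control value, 26.4 CPM, in control 3. The standard deviation within group and series was 0.426 log2 units for S100b, 0.347 for Aqp4 and 0.241 for Sox9.

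The share of mitochondrial counts moved with the members. Within group and series the mean of the members correlated with it at r = 0.831 and rho = 0.842 over 22 mice, and at r = 0.777 without the 2 mice farthest from the median share. The correlation with total counts was -0.15. By gene it was highest for Sdc4 (0.865), Gja1 (0.852) and Aqp4 (0.850), and lowest for Vim (0.315), Agt (0.433), Fjx1 (0.534) and Slc7a11 (0.549), the genes that also followed the other members least. Whether the mitochondrial share or its source had a part in the variation of the members was not tested.

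**Figure D5:**
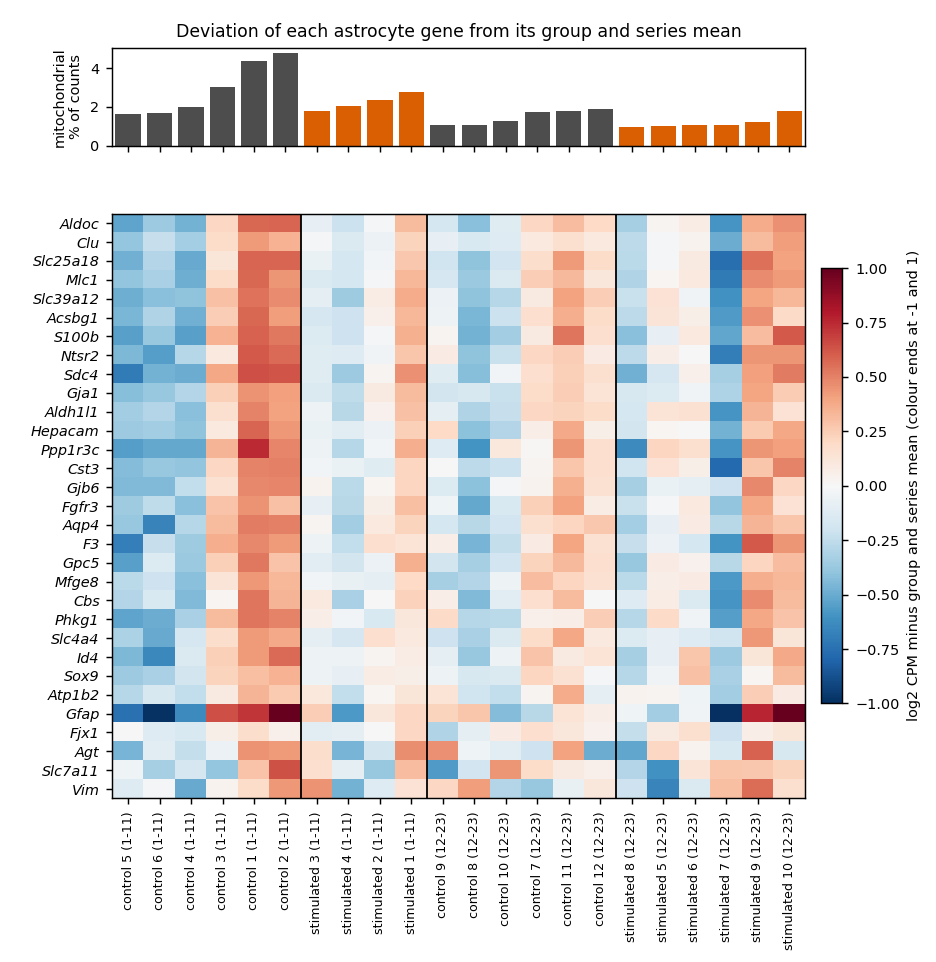
Deviation of each astrocyte gene in each mouse from the mean of its group and library series, in log2 CPM with colours ending at -1 and 1. Mice are ordered within group and series by the mitochondrial percentage of counts shown in the bars above (grey control, orange stimulated), and genes by their correlation with the mean of the other members, from Aldoc at 0.987 to Vim at 0.325. Most genes shift together, from blue at low to red at high mitochondrial shares, with stimulated 7 blue throughout most rows.

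Genes outside the 31 followed the same axis. The 10 genes most like the mean of the members, by the correlation within group and series over 22 mice, were Ndrg2 (r = 0.987), Plpp3 (0.984), Rftn2 (0.982), Acsl6 (0.981), Sfxn5 (0.980), Aldh6a1, Acadl, Serpine2, Smim3 and Slc38a3. Of markers of other cell types, the 12 microglia markers had a median correlation of 0.859 with that mean and the 12 endothelial and mural markers of 0.617, while the 14 neuron markers had -0.65 and the 14 oligodendrocyte markers 0.246. Over all other genes tested the median was 0.04. Microglia markers summed to 704 to 1209 CPM in controls and 658 to 1097 in stimulated mice, and neuron markers to 10575 to 15516 and 11228 to 16082. Their part in the variation of the astrocyte genes was not tested.

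In a list of 35 other astrocyte genes, the log2 fold change was negative for 28, with a median of -0.09, against 47.4% of all genes. With the mitochondrial share in the fit it was negative for 6 of 35, against 45.5% of all genes, the median was 0.07, and 6 had an unadjusted p under 0.05, against 10.6% of all genes. In the fit with the series, 3 had an unadjusted p under 0.05, against 11.5% of all genes, and 0 an adjusted p under 0.05. The 3 were Etnppl, an enzyme that breaks down phosphoethanolamine, with 48.3 ± 14.0 CPM in controls and 36.0 ± 5.78 in stimulated mice (log2 fold change -0.43), Nfia, a nuclear factor I gene of gliogenesis (-0.24), and Hes5, a Notch target (0.34).

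Of 36 genes known from reactive astrocytes 34 were tested, and 21 had a negative log2 fold change, with a median of -0.07, against 47.4% of all genes. That direction was not retained throughout. With the mitochondrial share in the fit 12 of 34 were negative, with a median of 0.03, against 45.5% of all genes, and 1 had an unadjusted p under 0.05, against 10.6%. Within libraries 1 to 11 26 of 34 were negative (median -0.13) and within libraries 12 to 23 16 of 34 (median 0.003), against 48.8% and 50% of all genes. At an unadjusted p under 0.05 there were 4 of 34 in the earlier libraries, 3 of them lower, against 5.56% of all genes, and 1 of 34 in the later ones, against 12.4%. Over both series there were 2, against 11.5% of all genes, Aspg, an asparaginase (-0.53, with 2.67 ± 0.752 CPM in controls and 1.91 ± 0.941 in stimulated mice), and Cd109, a surface protein below 1 CPM on average in both groups (-0.77), and 0 at an adjusted p under 0.05. Their median correlation with the mean of the members within group and series was 0.160, below the 0.939 of the other astrocyte genes. The reactive list summed to 379 to 638 CPM in controls and the other astrocyte list to 11661 to 24814. At least 10 counts in every mouse were reached by 26 of 36 and by 35 of 35 genes. The part of level in this gap was not tested.

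Of 15 genes for synapse formation and removal, most of them secreted or used by astrocytes, 4 had an unadjusted p under 0.05, against 11.5% of all genes, and 0 an adjusted p under 0.05. The log2 fold change was negative for 9 of the 15, against 47.4% of all genes, with a median of -0.06. Within libraries 1 to 11 it was negative for 10 (48.8% of all genes), with a median of -0.12. Within libraries 12 to 23 it was negative for 9 (50%), with a median of -0.02. Thbs4, a thrombospondin, had 9.13 ± 9.81 CPM in controls and 4.27 ± 1.54 in stimulated mice (log2 fold change -1.03). Megf10, an engulfment receptor, had -0.45, and Il33, a cytokine that oligodendrocytes also express, had -0.49. Nlgn2, an adhesion gene of inhibitory synapses that neurons express, had 0.28.

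Markers of other cell types in the same libraries give the setting of these values. All 14 oligodendrocyte markers had a negative log2 fold change and an unadjusted p under 0.05, against 47.4% and 11.5% of all genes, with a median of -0.68, but a median of 0.003 within libraries 1 to 11 and of -1.31 within libraries 12 to 23. Without control 9 the median was -0.42 with 6 of 14 at an unadjusted p under 0.05 (9.84% of all genes), and without control 11 it was -0.56 with 9 of 14 (8.64%). With the replicate block and the series it was -0.39 with 4 of 14 (11.3%), with the block alone -0.37 with 3 of 14 (7.37%), and in limma voom with quality weights -0.32 with 5 of 14 (16.3%). Examples are Ugt8a (-0.82), Ermn (-0.78) and Mobp (-0.91). The progenitor markers also differed by series. Their list does not stand for progenitors alone. In the study Olig2 was taken for the oligodendrocyte lineage and PDGFRA for its progenitors. Of 8, 1 had an unadjusted p under 0.05 over all mice, Olig2 (-0.29), and the median of the 8 was -0.13. Within libraries 1 to 11 that median was 0.10, with 3 of 8 negative (48.8% of all genes) and 1 at an unadjusted p under 0.05 (5.56%), and within libraries 12 to 23 it was -0.36, with 8 of 8 negative (50%) and 5 at an unadjusted p under 0.05 (12.4%).

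Of 14 neuron markers 4 had an unadjusted p under 0.05, against 11.5% of all genes, Slc32a1 (0.31), Stmn2 (0.24) and Slc17a7 (0.16) with a positive log2 fold change and Nefl (-0.14) with a negative one. Of 12 endothelial and mural markers 1 did, Rgs5 (-0.25). Their median was -0.11 over all mice. Within libraries 1 to 11 it was -0.23, with 12 of 12 negative (48.8% of all genes) and 2 at an unadjusted p under 0.05 (5.56%), and within libraries 12 to 23 it was 0.007, with 6 of 12 negative (50%) and 0 at an unadjusted p under 0.05 (12.4%). Of the 4 ependymal and choroid plexus markers tested 2 did, Ttr (-1.88) and Foxj1 (-0.82). The number was 0 of 4 with the replicate block and the series, with the block alone, in limma voom and within libraries 1 to 11, and 1 without control 9. Of 12 microglia and 7 fibroblast and meningeal markers 0 had an unadjusted p under 0.05. With the mitochondrial share in the fit, 7 of the 12 microglia markers did, against 10.6% of all genes, 11 of 12 log2 fold changes were positive and the median was 0.18, and with 1 surrogate variable 3 did, against 16.6%. None of these lists had a gene at an adjusted p under 0.05 in these fits.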

How the data were processed

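RNA of the ACC had been amplified to full-length cDNA, sequenced from a single end and, by the authors, trimmed with cutadapt 1.10, aligned to mm10 with STAR 2.5.3a and counted per gene with htseq-count 0.6.1p1. The authors deposited whole-number counts per gene and mouse, which were the values used here. They also deposited a signal, the same counts divided by size factors, from which no result was taken, and the fold changes and p-values of their own DESeq2 1.22.1 comparison, which were not used. Samples were grouped by their labels. RNA integrity and batch, covariates of the study, are not given in the labels, and the library number (1 to 11 or 12 to 23) was used as the series. The smallest mean chi-square per gene over 231 pairs of libraries was 11.3, far above sampling noise, and the 22 libraries were counted separately. The table held 0 other columns of values per sample.

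Counts were analysed with edgeR 4.0.16 (TMM, glmQLFit, glmQLFTest) in R 4.3.3 with series and group as terms, over the 17524 genes that reached 10 counts in 10 or more mice, and Benjamini-Hochberg adjustment. The fit was also run on simulated counts in which genes varied independently, unlike in these data, and no result rests on that run. Standard errors were obtained from the fold change and the root of its F statistic. CPM are TMM-normalized, and sums of marker lists are scaled to the total counts alone. Centred values are log2 CPM with a prior count of 2. Exon lengths and positions are from GENCODE M21 on GRCm38, where 37772 of 37786 identifiers were found. Promoters are RefSeq windows. Python 3.11.15 and scipy 1.17.1 served for the rest.

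Alternatives were the group as the only term, the replicate number as a block with and without the series, 1 surrogate variable (sva 3.50.0), DESeq2 1.42.0 size factors and Wald test, limma 3.58.1 voom with quality weights, other count minimums, each series alone, each mouse left out, and the mitochondrial share as a term, which was added after seeing the data. The members and all lists were chosen with earlier results of these data known. Genes described mouse by mouse are the defining markers Gfap, Aqp4, Aldh1l1, S100b, Sox9 and Gja1, members at an unadjusted p under 0.05, and those with the most extreme fold change or spread. From other lists those with the smallest unadjusted p under 0.05 are named. Mice are separate animals, and intervals beyond the spread between them are not given.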

Additional observations from a re-analysis of the deposited data

How the results depend on the processing

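Under each alternative 0 members had an adjusted p under 0.05 between the groups, in edgeR's quasi-likelihood test, the DESeq2 Wald test and limma voom with Benjamini-Hochberg adjustment. The number of members at an unadjusted p under 0.05, 2 with the series in the fit, was 0 with the group as the only term, 7 with the replicate block and the series, 1 with the block without the series, 5 with 1 surrogate variable, 1 in libraries 1 to 11 alone, and 1 to 5 with a mouse left out (1 without stimulated 7, when Gpc5 did not pass, and 5 without control 5, control 6 or stimulated 10). Members with a negative log2 fold change numbered 28, but 17 with the block without the series, 12 with the mitochondrial share, and 24 to 30 with a mouse left out. Their median stayed between -0.20 and -0.11 with a mouse left out.

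Over all genes, 2015 had an unadjusted p under 0.05, against 632 with the group as the only term, 1980 with the replicate block and the series, 2910 with 1 surrogate variable, 1291 with the block without the series, 3687 with every gene that had a count, 974 in libraries 1 to 11 alone, and 1507 to 2415 with a mouse left out. At an adjusted p under 0.05 there were 33 genes in the DESeq2 Wald test, 1 in limma voom, and 0 to 1 with a mouse left out in edgeR. The difference of the effect between the series had 1 member at an unadjusted p under 0.05 with DESeq2 size factors, in the Wald test and with at least 10 counts in every mouse, against 1354 and 1489 of 17524 genes and 1145 of 14554. With the group as the only term the numbers at an unadjusted p under 0.05 were 1 of the other astrocyte genes, 1 of the reactive genes, 0 neuron, 0 progenitor and 0 endothelial markers, and 1 ependymal marker. In that fit 3 of the 15 synapse genes were at an unadjusted p under 0.05, against 632 of 17524 genes.

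Of the 10 genes described by mouse, 7 changed sign somewhere. With the mitochondrial share the log2 fold change was 0.069 for Gfap, 0.064 for Aldh1l1 and 0.13 for S100b. With the block without the series it was 0.034 for Aqp4, 0.076 for Aldh1l1, 0.0079 for Gja1 and 0.020 for Slc4a4. It was 0.0096 for S100b in libraries 1 to 11, and for Agt it was -0.22 in libraries 12 to 23 and -0.012 without stimulated 1, where leaving out a mouse gave up to 0.15. With a mouse left out Gfap ranged from -0.36 to -0.13, Slc4a4 from -0.38 to -0.28 and Gpc5 from -0.33 to -0.24. The causes of these shifts were not tested.

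Mice with the same replicate number are different animals. Centred on the group means they correlated at a mean of 0.278, with 8 of 10 pairs over 0.1, and centred on the means of group and series at 0.017, with 3 of 10 pairs over 0.1, so the numbers were not taken as pairs. Replicates 5 and 6 pair a control of libraries 1 to 11 with a stimulated mouse of libraries 12 to 23. The lowest count of a member in any mouse was 155, and the part of depth in the results was not tested.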
